A study of Mus musculus with 8 samples.

Results

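Fatty acid uptake and binding genes of the mouse liver were examined for their mRNA, their ribosome-protected fragments (RPFs) and the ratio between them, in mice on a high-fat diet with or without betaine. The 8 genes were taken by symbol: Cd36, Slc27a2 and Slc27a4 at the membrane, Fabp1, Fabp2, Fabp4 and Fabp5 as cytosolic fatty acid binding proteins, and Dbi as the acyl-CoA binding protein. All 8 symbols were listed in every file, also where the value was 0, among 24079 gene symbols shared by the RNA-seq and Ribo-seq tables. The HF group was C57BL/6 mice on a diet with 45% of kcal from fat, started at week 8. The HB group had the same strain and diet, with betaine, a methyl donor made from choline, at 2% w/v in the water. Each group had 2 RNA-seq and 2 Ribo-seq libraries of liver, labelled as postnatal week 25, which leaves 17 weeks of feeding, although another label gives 25 weeks on the diet. No group on a standard diet was analysed here. The labels describe pooled RNA preparations, whereas the study's methods describe single mice, picked for a body weight near the group mean, as biological repeats. This conflict was not settled, so the p-values measure the spread between these libraries, and if the preparations were pooled that spread may be technical.

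Long-chain fatty acids reach the hepatocyte from plasma and are carried across the membrane with the help of CD36, a scavenger receptor that binds fatty acids and oxidized lipoproteins, and of the FATP family, whose members also hold acyl-CoA synthetase activity. FATP2, made from Slc27a2, is a main FATP of liver, and FATP4, made from Slc27a4, is best known from gut and skin. Inside the cell, fatty acids are poorly soluble and are bound by small beta-barrel proteins of the FABP family. FABP1 is the liver form, FABP2 the intestinal form, FABP4 the adipocyte and macrophage form and FABP5 the epidermal form, also found in macrophages. Once activated, acyl-CoA is bound by the product of Dbi. Several of these genes are textbook targets of PPAR receptors, which bind a direct repeat of the hexamer AGGTCA with 1 base between the copies.

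On GRCm38 (mm10), the build of the deposited files, Fabp5 lies on chromosome 3 from 10012548 to 10016607 on the plus strand. Fabp4 lies close to it on the same chromosome, from 10204088 to 10208576 on the minus strand, and Fabp2 lies far from both at 122895072 to 122899506 on the plus strand. Fabp1 is on chromosome 6 (71199827 to 71205023, plus strand), Dbi on chromosome 1 (120113280 to 120121078, minus strand) and Cd36 on chromosome 5 (17781690 to 17888801, minus strand). Both Slc27a4 (29802634 to 29817522) and Slc27a2 (126552407 to 126588243) are on the plus strand of chromosome 2. RefSeq promoter windows were held for 6 of the 8 genes, not for Fabp4 or Fabp5. The 250 bases before a RefSeq start of GRCm38.p6 are printed below for Fabp2, whose mRNA passed the test described below, and for Fabp1, the most abundant member. The positions are chr3:122894822-122895071 on the plus strand for Fabp2 and chr6:71199629-71199878 on the plus strand for Fabp1. Capitals mark every match, on either strand, to the hexamer AGGTCA, the TATA box TATAAA, the CCAAT box CCAAT and the GC box GGGCGG.
Fabp2: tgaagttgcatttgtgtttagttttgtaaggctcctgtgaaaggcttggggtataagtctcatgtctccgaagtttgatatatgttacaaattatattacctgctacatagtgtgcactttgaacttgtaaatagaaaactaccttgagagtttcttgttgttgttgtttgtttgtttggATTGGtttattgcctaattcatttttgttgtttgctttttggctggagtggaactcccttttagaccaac
Fabp1: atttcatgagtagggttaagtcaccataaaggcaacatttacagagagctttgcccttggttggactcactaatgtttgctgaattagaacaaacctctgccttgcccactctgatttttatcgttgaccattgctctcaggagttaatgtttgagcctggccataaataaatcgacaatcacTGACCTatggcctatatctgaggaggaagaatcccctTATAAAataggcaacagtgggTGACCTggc

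The Fabp1 window held the hexamer at 2 places on the minus strand, at -67 to -62 and -9 to -4 from the start, and a TATA box at -30 to -25. The Fabp2 window held 1 match, a CCAAT box on the minus strand at -70 to -66. A single hexamer was also present before the RefSeq starts held for Slc27a2 (-220 to -215) and Cd36 (-228 to -223). Those starts lie inside the gene bounds given above, so these windows are within the genes, and the end of the Fabp1 window also lies within its bounds. Among all 32851 RefSeq windows of this length, 14.02% held at least 1 hexamer, 12.37% the TATA box, 33.85% the CCAAT box and 32.74% the GC box. The full direct repeat, in either orientation, was in 0.03% of the windows and in none of the members' windows. These matches describe the letters only.

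The files gave RPKM values (reads scaled to transcript length and library size). Low values moved in steps of 1 read, from which library totals between 11661207 and 22543471 reads were estimated for RNA-seq, the HB libraries being the deeper ones, and between 141890 and 1056546 for Ribo-seq, the HB libraries being the shallower ones (257086 and 141890, against 387980 and 1056546 in HF). The part of this difference in depth in the RPF results was not tested. A value was treated as at the floor where 3 reads or fewer lay behind it. In tests over all genes with a mean of at least 1 RPKM, the median log2 difference, HB minus HF, was -0.19 for mRNA, -0.43 for RPFs and -0.35 for their ratio, and the members' differences are also given relative to these medians. The tissue label fitted its markers: Alb, the hepatocyte marker with the highest mRNA, had 21470 and 24883 RPKM in the HF libraries and 31910 and 24178 RPKM in the HB libraries.

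In the HF group the mRNA levels of the 8 genes, which RPKM makes comparable per length, ran from a mean of 11370 RPKM for Fabp1 (SD 599, n = 2) to 3.72 RPKM for Fabp5 (SD 0.607, n = 2). Fabp1 ranked 6 among 10687 tested genes by its mean over all 4 libraries. Slc27a2 (769 ± 4.39 RPKM, SD, n = 2) and Dbi (708 ± 61.3) followed in the HF group at nearby levels, then Fabp2 (80.4 ± 2.33). Fabp4 (23.2 ± 10.7) and Cd36 (22.4 ± 4.64) did not differ beyond their spread, and Slc27a4 (4.63 ± 0.106) stood just above Fabp5. In the HB group the order changed in its middle and at its lower end. Dbi (1827 ± 86.7 RPKM) was now above Slc27a2 (564 ± 14.0), Fabp2 stood at 197 ± 32.3, and Cd36 (30.6 ± 17.6), Fabp5 (14.8 ± 5.43), Fabp4 (13.8 ± 6.00) and Slc27a4 (9.62 ± 0.243) each overlapped with its neighbour in the order. Fabp1 made up between 98.3% and 99% of the summed mRNA RPKM of 10 FABP-type genes (Fabp1 to Fabp7, Fabp9, Fabp12 and Pmp2) in the 4 libraries.

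**Figure D1:**
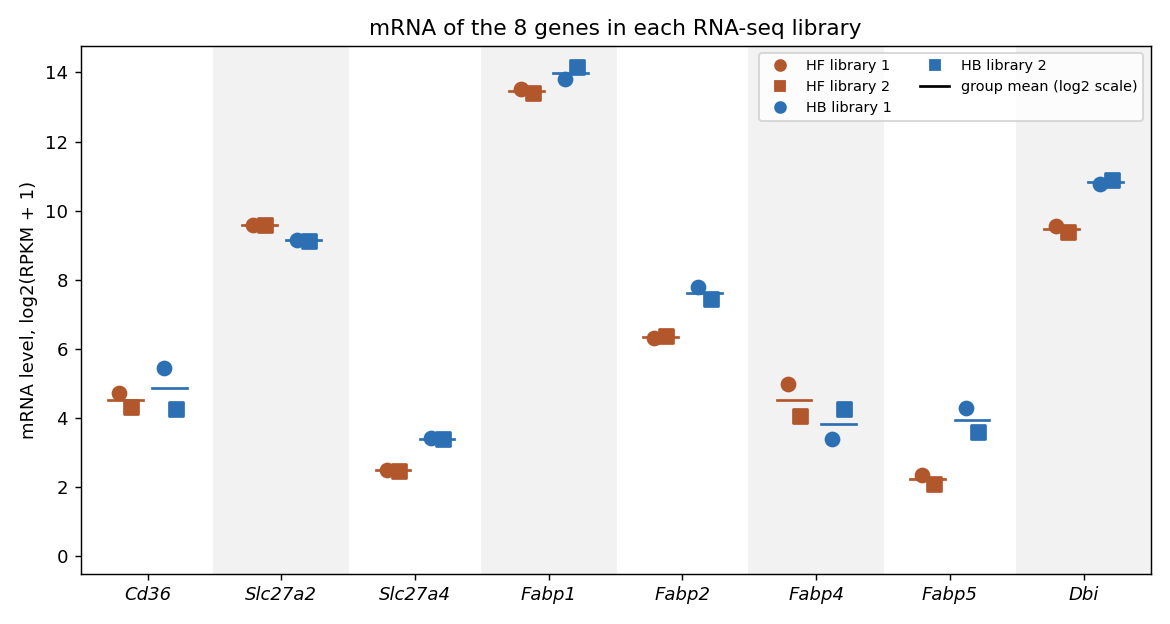
mRNA level of each gene as log2(RPKM + 1) in the 4 RNA-seq libraries, HF in brown and HB in blue, circles for library 1 and squares for library 2, with bars at the group means. The HB points of Fabp2, Fabp5, Dbi, Slc27a4 and Fabp1 all lie above the HF points of the same gene, those of Slc27a2 lie below, and those of Cd36 and Fabp4 overlap with HF.

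The comparison of HB with HF asks which of these genes changed when betaine was added to the high-fat diet. At the mRNA level, Fabp5, Dbi and Fabp2 were higher in HB, by 3.27, 2.58 and 2.42 times on the log2(RPKM + 1) scale. No member was lower beyond the threshold. A gene was called at the mRNA level where the log2 difference was beyond 1 and the unadjusted p of limma was under 0.001; 2.30% of the 10687 tested genes were called higher by this rule and 6.56% lower, and 3 of 8 members were called higher. With limma's Benjamini-Hochberg adjusted p under 0.05 in place of the unadjusted one, the same 3 members passed, against 5.01% of all tested genes. The median log2 difference of the 8 members was 0.72, beside -0.19 for all tested genes. In 5 members both HB libraries were above both HF libraries, a pattern found in 24.8% of all tested genes, and in 1 member, Slc27a2, both were below, as in 43.3% of tested genes. In bulk liver, a change in the number of cells of a type and a change in RNA per cell cannot be told apart.

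Of the membrane proteins, Slc27a2 had mRNA levels of 765 and 772 RPKM in HF and 573 and 554 RPKM in HB. The groups did not overlap, but the log2 difference of -0.45 (SE 0.27) did not pass (limma adjusted p = 0.243), and it was -0.26 relative to the median gene. Slc27a4 had 4.71 and 4.56 RPKM in HF and 9.79 and 9.45 RPKM in HB. Both HB libraries stood clearly above both HF libraries, on 216 to 885 reads per library. Its log2 difference of 0.92 (SE 0.24, limma adjusted p = 0.0229) was not called, as it missed both the fold threshold and an unadjusted p under 0.001, and it was 1.10 relative to the median gene. With a pseudocount of 0.1 (1.04) and in voom (1.05) the fold passed and the unadjusted p still did not. With every library set to a common median it was 1.19 and was called (limma adjusted p = 0.00987). With no filter on low values it stayed at 0.92, was not called and had a weaker limma adjusted p of 0.0672. It was 0.93 without the first HF library and 0.90 without the second. Without the first HB library it was 0.89, and without the second 0.94, so each of these missed the fold threshold. Cd36 had 25.7 and 19.1 RPKM in HF and 43.1 and 18.2 RPKM in HB. The first HB library was the highest of the 4 and the second the lowest. The log2 difference was 0.33 (SE 0.37, limma adjusted p = 0.539). It turned to -0.27 without the first HB library and rose to 0.93 without the second. Slc27a2 overlaps with the antisense noncoding gene Gm26697 over 421 bases of its transcript, and as the library kit does not mark strand, reads of the pair cannot be told apart.

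Of the cytosolic binding proteins, Fabp5 had 4.15 and 3.29 RPKM in HF and 18.7 and 11 RPKM in HB. Both HB libraries were above both HF libraries, on 46 and 37 reads in HF and 400 and 189 reads in HB. Its log2 difference was 1.71 (SE 0.30, limma adjusted p = 0.00640), the largest of the 8, and 1.90 relative to the median gene. Fabp2 had 78.7 and 82.0 RPKM in HF and 220 and 174 RPKM in HB. The 2 HF libraries were nearly equal and both HB libraries lay above them. Its log2 difference was 1.27 (SE 0.26, limma adjusted p = 0.00957). Fabp1 had 11793 and 10946 RPKM in HF and 14515 and 18363 RPKM in HB. Both HB libraries were above both HF libraries, but the log2 difference of 0.52 (SE 0.36) did not pass (limma adjusted p = 0.298). The difference between the group means of Fabp1, 5070 RPKM, exceeded the summed mRNA RPKM of the other 7 members in any library (at most 2673). Fabp4 had 30.8 and 15.6 RPKM in HF and 9.55 and 18.0 RPKM in HB. The second HB library lay between the HF libraries, and the log2 difference of -0.70 (SE 0.37) did not pass (limma adjusted p = 0.191). It ranged widely with a library left out, from -0.23 without the first HF library and -0.27 without the first HB library to -1.12 without the second HB library (limma adjusted p = 0.0335) and -1.17 without the second HF library (adjusted p = 0.0451), where the unadjusted p still missed 0.001. Relative to the median gene the mRNA differences were 0.52 for Cd36, 1.46 for Fabp2, 0.71 for Fabp1 and -0.51 for Fabp4.

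Dbi had 752 and 665 RPKM in HF and 1766 and 1888 RPKM in HB. Libraries within a group were close together and the groups were far apart, on 4615 to 23363 reads per library. The log2 difference was 1.37 (SE 0.29, limma adjusted p = 0.0104) and 1.56 relative to the median gene. The calls of Fabp2 and Dbi lay near the threshold. Without the first HF library, Fabp2 had a log2 difference of 1.24 (limma adjusted p = 0.0503) and Dbi one of 1.46 (adjusted p = 0.0413). Without the second HF library the values were 1.30 (limma adjusted p = 0.0300) for Fabp2 and 1.28 (adjusted p = 0.0664) for Dbi. Neither was called with 1 HF library, and Fabp5 was called in each of the 4 such fits. These fits leave 1 library in a group, and that library is assumed to vary like the other group. In a fit over all genes above 0, with no filter on low values, none of the 3 was called (limma adjusted p = 0.0550 for Fabp5, adjusted p = 0.0594 for Dbi and adjusted p = 0.0545 for Fabp2). In a fit of limma voom to the recovered reads Fabp5 alone of the 3 was lost (log2 difference 1.95, limma adjusted p = 0.0130, with the unadjusted p above 0.001).

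Near-identical copies limit the values of Fabp5 and Dbi. In the GENCODE M21 transcripts, 5 processed pseudogenes match Fabp5 at 93.6% to 98.3% identity over 336 to 409 aligned bases, the closest being Gm6166. One processed pseudogene, Gm12222, matches Dbi at 93.9% over 261 bases. None of them has an entry of its own in the tables used here, so reads could have been shared with these copies, and the levels of Fabp5 and Dbi are uncertain to that extent.

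Markers of other cell types moved with some of these values, and their part in the results was not tested. Cd5l, Cfd, Cidec, Alas2 and Hba-a1 are named here after their values were seen. Beside Fabp5, the 6 markers of Kupffer cells and macrophages had a summed mRNA of 104 and 117 RPKM in HF and 148 and 133 RPKM in HB. Of these 6, the lysozyme gene Lyz2 was called higher (5.19 and 11.5 RPKM in HF, 38.3 and 35.6 RPKM in HB, log2 difference 2.11, limma adjusted p = 0.00526). Cd5l, a secreted macrophage protein, passed by adjusted p with the same fold (11.3 and 18.8 RPKM in HF, 41.4 and 32.6 RPKM in HB, log2 difference 1.27, limma adjusted p = 0.0144). Clec4f, the most abundant, had 72.6 and 64.4 RPKM in HF and 48.9 and 49.6 RPKM in HB (log2 difference -0.47, limma adjusted p = 0.182). Of the 6, 3 had a positive and 3 a negative log2 difference. The number higher in both HB libraries was 2, a pattern found in 24.8% of tested genes. Beside Fabp2, the enterocyte markers Vil1, Alpi, Sis and Lct were at 0 in both HF libraries and at no more than 1.396 RPKM in any HB library. The fifth, Apoa4, which the mouse liver also expresses, had 364 and 232 RPKM in HF and 643 and 710 RPKM in HB. Beside Fabp4, the defining adipocyte markers Adipoq, Plin1, Lep and Retn were at or below 0.539 RPKM in every RNA-seq library and at 0 in every Ribo-seq library. The summed mRNA of the 7 adipocyte markers, 846 and 1234 RPKM in HF and 1868 and 1482 RPKM in HB, was mostly Car3, which liver also expresses. Of the 7, 4 (Car3, Cfd, Cidec and Retn) were higher in both HB libraries, a pattern found in 24.8% of tested genes. Retn, at 0 in both HF libraries and 0.078 and 0.146 RPKM in HB, was too low to be tested. Cfd, the gene of complement factor D, had 9.52 and 12.1 RPKM in HF and 22.3 and 22.7 RPKM in HB (log2 difference 1.00, limma adjusted p = 0.0187), and Cidec, a lipid droplet gene, had 25.4 and 6.16 RPKM in HF and 28.4 and 34.5 RPKM in HB (log2 difference 1.23, limma adjusted p = 0.0909). The 3 erythroid markers summed to 251 and 210 RPKM in HF and 395 and 1005 RPKM in HB. Of them, the globin gene Hbb-bs was called higher in HB (75.2 and 67.9 RPKM in HF, 265 and 643 RPKM in HB), Alas2, the erythroid enzyme of heme synthesis, was higher in both HB libraries (22.1 and 33.2 RPKM in HF, 51.4 and 67.2 RPKM in HB, log2 difference 1.09, limma adjusted p = 0.0227), and Hba-a1 overlapped between groups (154 and 109 RPKM in HF, 79.4 and 296 RPKM in HB). Summed endothelial markers, led by Clec4g, ran from 54.2 to 64.9 RPKM in HF and from 53.7 to 63.4 RPKM in HB. The sum was mostly Clec4g (mean 37.1 RPKM in HF and 43.5 RPKM in HB), and of the 5 tested, 2 had a positive and 3 a negative log2 difference. Stellate cell markers, led by Dcn, summed to 27.8 and 27.5 RPKM in HF and 66.8 and 36.5 RPKM in HB. The sum was mostly Dcn (mean 22.2 RPKM in HF and 44.2 RPKM in HB), and of the 4 tested, 2 had a positive and 2 a negative log2 difference. Cholangiocyte markers, led by Krt19, stayed at or below 4.16 RPKM in sum and lymphocyte markers, led by Cd79a, at or below 1.79 RPKM.

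At the translational level no member was called, and none had both HB libraries above both HF libraries, a pattern of 9.07% of the tested genes. A gene was called at the RPF level where the log2 difference was beyond 1 and the unadjusted limma p under 0.05, which 1.58% of 11190 tested genes met in the higher and 7.86% in the lower direction. No gene passed in this fit with an adjusted p under 0.05 (1122 genes had an unadjusted limma p under 0.05, with the fold threshold left aside, and 86 passed by adjusted p in limma voom on the recovered reads, 24 with the replicate number as a block, 79 with those numbers crossed between groups, 701 without the first HF library and 704 without the second). RPFs of the members rested on unequal depth, from 2616 reads over the 4 libraries for Slc27a2 to 69 for Slc27a4 and 10 for Fabp4, beside a median of 41 reads for all tested genes. For Fabp5, the RPKM steps fit 1 or 2 reads in each of 3 libraries and none in the first HB library. The median log2 difference of the 6 members above the floor was -0.16, beside -0.43 for all tested genes.

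**Figure D2:**
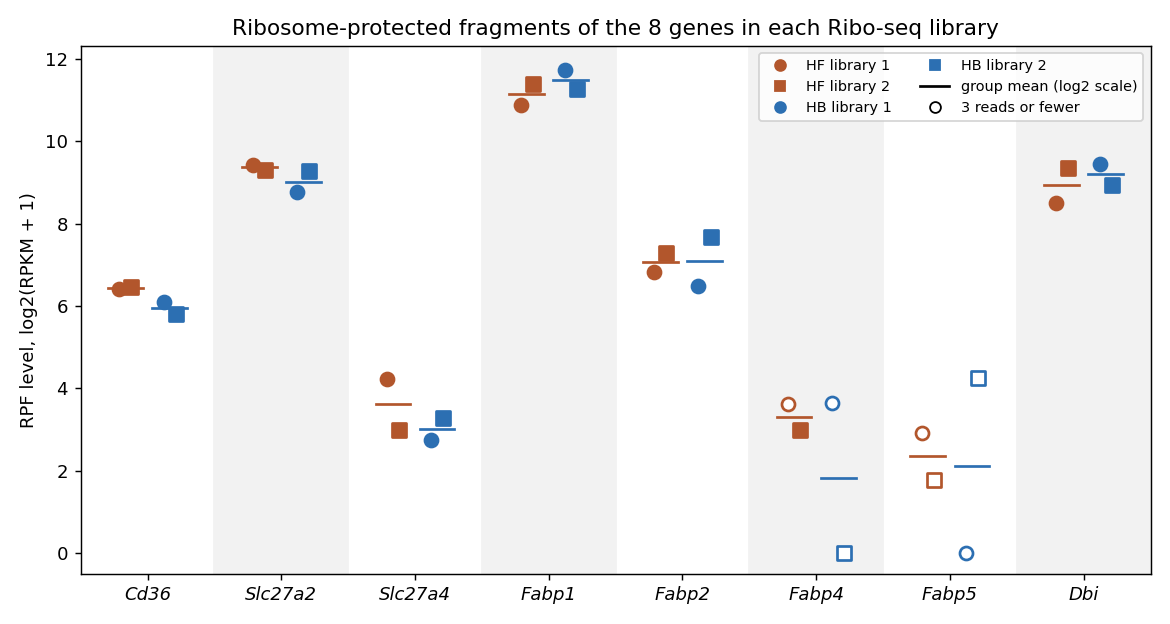
RPF level of each gene as log2(RPKM + 1) in the 4 Ribo-seq libraries, with colours and symbols as for mRNA and open symbols where 3 reads or fewer lay behind a value. Only Cd36 and Slc27a2 show HB and HF points that do not overlap, HB being lower as in 33.2% of tested genes. Of the 8 points of Fabp4 and Fabp5, 7 are open.

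Cd36 had 84.6 and 86.8 RPKM of RPFs in HF and 67.6 and 55.3 RPKM in HB. Both HB libraries were below both HF libraries, a pattern found in 33.2% of tested genes, and the second rested on 28 reads. The log2 difference was -0.48 (SE 0.28, limma adjusted p = 0.614), which is -0.05 relative to the median gene. Slc27a2 had 687 and 635 RPKM in HF and 434 and 619 RPKM in HB. The second HB library was close to the second HF library. The log2 difference was -0.35 (SE 0.30, limma adjusted p = 0.679). Slc27a4 had 17.8 and 7.004 RPKM in HF and 5.76 and 8.69 RPKM in HB, the HB values on 6 and 5 reads. Its groups overlapped, and the log2 difference of -0.60 (SE 0.63) did not pass (limma adjusted p = 0.732).

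Fabp1 had 1893 and 2690 RPKM of RPFs in HF and 3396 and 2450 RPKM in HB, which left it the most translated member in every library, ahead of Slc27a2 or Dbi. Its log2 difference was 0.35 (SE 0.38, limma adjusted p = 0.738), and 0.78 relative to the median gene. Fabp2 had 112 and 156 RPKM in HF and 88.7 and 204 RPKM in HB. The HB libraries were the lowest and the highest of the 4. Its log2 difference was 0.03 (SE 0.48), with a 95% confidence interval from -1.22 to 1.27 (limma adjusted p = 0.985). Dbi had 360 and 656 RPKM in HF and 702 and 492 RPKM in HB. The second HB library lay between the HF libraries, and the log2 difference was 0.27 (SE 0.41), with an interval from -0.78 to 1.33 (limma adjusted p = 0.817). Relative to the median gene the RPF differences were 0.08 for Slc27a2, -0.17 for Slc27a4, 0.45 for Fabp2 and 0.70 for Dbi, so the sign of Slc27a2 turned. Without the first HF library, Slc27a4, Fabp2 and Dbi had RPF differences of the opposite sign.

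Fabp4 and Fabp5 gave too few RPFs for a fold. Fabp4 had 3 and 5 reads in HF and 2 and 0 in HB. Scaled to the summed library totals, the HB rate was 0.905 times the HF rate, with an exact 95% interval from 0.0936 to 4.54 that covers counting error only. Fabp5 had 6.61 and 2.43 RPKM in HF and 0 and 18.1 RPKM in HB, where a value of 3 reads would be 9.91, 3.64, 15.0 and 27.1 RPKM in the same order. The rise of Fabp5 mRNA could therefore not be compared with its RPFs at this depth.

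Translational efficiency (TE) was taken as the RPF RPKM over the mRNA RPKM of the libraries with the same group and number. Whether 2 such libraries came from the same animals is not known here. By the mean of the HF pairs, Cd36 had the highest TE of the members (3.92, from 3.296 and 4.55), above 91.5% of 9455 genes tested in both assays, although Slc27a4 was higher in the first pair. Fabp1 had the lowest, 0.161 and 0.246, above 6.9% of these genes, so that the gene with by far the most mRNA carried few RPFs per mRNA in these units. Slc27a4 (3.78 and 1.54) and Fabp2 (1.42 and 1.90) were above the median of the tested genes, which was 1.07 and 1.02 in the HF pairs. Slc27a2 (0.897 and 0.823) and Dbi (0.479 and 0.987) were below it. In HB the same median was 0.877 and 0.739. The lengths implied by the RPKM steps, 3566 bases for Cd36 and 512 bases for Fabp1 in Ribo-seq, were beyond their longest annotated coding sequences of 1416 and 381 bases, so RPFs were scaled to more than the coding part and TE compares unlike genes only roughly.

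**Figure D3:**
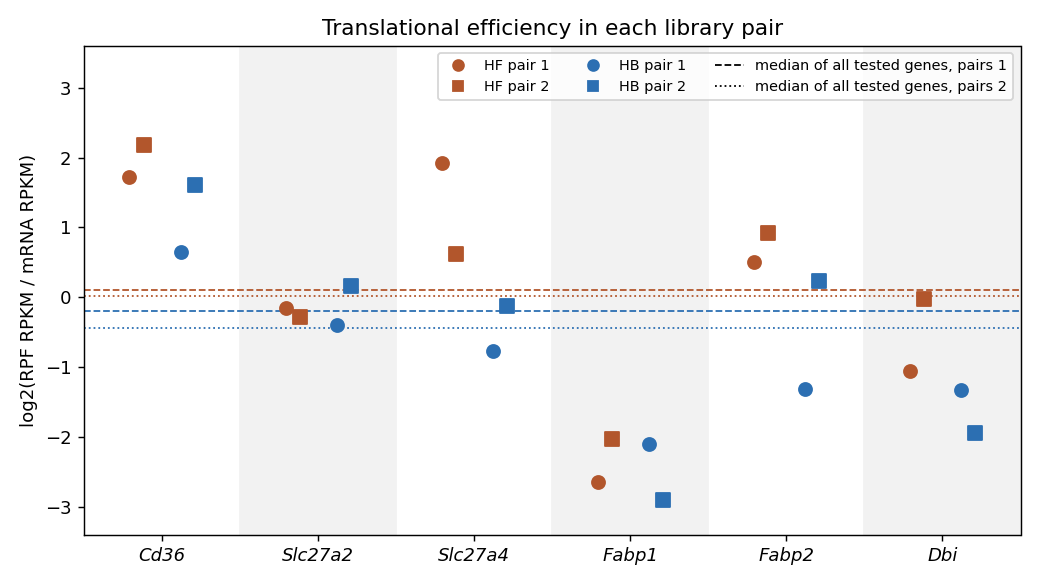
TE of the 6 members above the read floor, as log2 of RPF RPKM over mRNA RPKM, in each library pair of HF (brown) and HB (blue), with lines at the median of 9455 tested genes. The HB points of Cd36, Slc27a4, Fabp2 and Dbi lie below the HF points, as in 31.9% of all tested genes, while those of Slc27a2 and Fabp1 overlap with HF.

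Between groups, no member's TE was called at a log2 difference beyond 2 and an unadjusted limma p under 0.05, which 1.49% of tested genes met in the higher and 4.60% in the lower direction. No tested gene passed in this fit with an adjusted p under 0.05 (1154 had an unadjusted limma p under 0.05, and 1 passed by adjusted p in a limma fit of the interaction of assay and group, 1601 without the first HB pair and 1042 without the second). In 4 of the 6 members above the floor both HB values of TE were below both HF values, a pattern found in 31.9% of tested genes. This count rests on the pairing by number, and with the numbers crossed the Cd36 values of the groups overlap. The TE of Slc27a4 was 3.78 and 1.54 in HF and 0.588 and 0.920 in HB. Both HB values were below both HF values, and the log2 difference of -1.52 (SE 0.63) had an interval from -3.04 to 0.01 (limma adjusted p = 0.411). It was -0.92 without the first HF pair and -2.11 without the second. The TE of Fabp2 was 0.404 and 1.17 in HB, below both HF values. Its log2 difference was -1.25 (SE 0.69, limma adjusted p = 0.507), and it depended on the HB pair kept. It was -0.48 without the first HB pair (limma adjusted p = 0.545) and -2.01 without the second, where it was called (adjusted p = 0.0446) with a lone HB pair assumed to vary like the HF pairs. The TE of Dbi was 0.398 and 0.261 in HB, again below both HF values, with a log2 difference of -1.09 (SE 0.74, limma adjusted p = 0.576) that ran from -1.61 without the first HF pair to -0.57 without the second. For Cd36, 1.57 and 3.05 in HB, the log2 difference was -0.81 (SE 0.53, limma adjusted p = 0.566), and it ran from -1.27 without the second HB pair to -0.35 without the first.

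The TE of Slc27a2 and Fabp1 overlapped between groups. Slc27a2 had 0.758 and 1.12 in HB and a log2 difference of 0.10 (SE 0.57, limma adjusted p = 0.956). Fabp1 had 0.234 and 0.133 in HB and a log2 difference of -0.17 (SE 0.89, limma adjusted p = 0.953), a sign that turned to 0.15 when all libraries were set to a common median. The median log2 difference of TE over the 6 members above the floor was -0.95, beside -0.35 for all tested genes. Relative to that median the TE differences were -1.16 for Slc27a4, -0.89 for Fabp2, -0.74 for Dbi, -0.46 for Cd36, 0.45 for Slc27a2 and 0.18 for Fabp1, so the sign of Fabp1 turned. As TE has the mRNA level in its denominator, the mRNA and TE differences of a gene are not independent measurements.

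**Figure D4:**
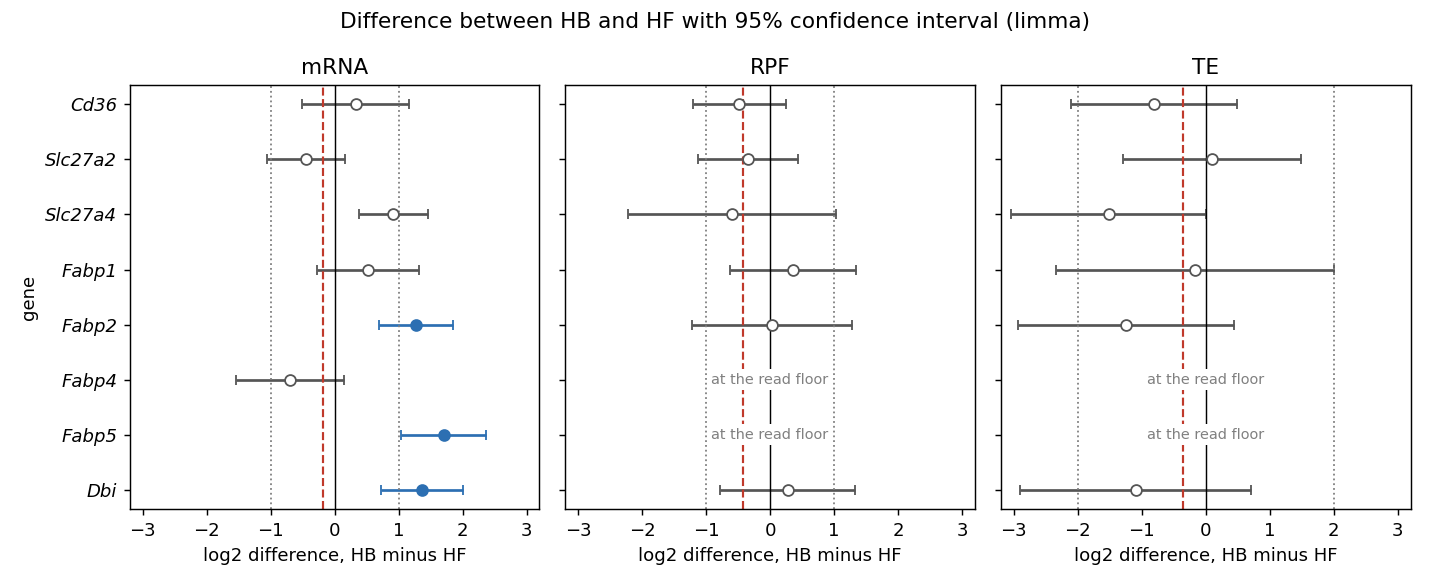
Log2 difference, HB minus HF, of each gene for mRNA, RPFs and TE, with its 95% confidence interval from limma; filled points were called, dotted lines are the fold thresholds and the dashed red line is the median of all tested genes. Only the mRNA of Fabp2, Fabp5 and Dbi was called, and every RPF interval shown includes 0.

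Relatives and partners of the members were taken from 4 lists of 35 genes in all. At the mRNA level 1 of 20 tested genes was called higher and none lower, beside 2.30% and 6.56% of all tested genes, with a median log2 difference of 0.23 beside -0.19 for all tested genes. The called gene was Acsl5, a long-chain acyl-CoA synthetase that turns fatty acids into the acyl-CoA bound by the Dbi product. Its mRNA was 29.9 and 21.4 RPKM in HF and 157 and 71.6 RPKM in HB. Both HB libraries were above both HF libraries, and the log2 difference was 2.02 (SE 0.37, limma adjusted p = 0.00685). RPFs of Acsl5 overlapped between the groups, at 57.3 and 81.4 RPKM in HF and 67.9 and 44.7 RPKM in HB. Its TE was called lower, with a log2 difference of -2.33 (SE 0.60, limma adjusted p = 0.334).

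At the RPF level 1 of 19 tested relatives was called, Acbd6, an acyl-CoA binding protein like that of Dbi, and at the TE level the same gene and Acsl5 were the 2 called of 18, all lower, beside 7.86% of all tested genes called lower for RPFs and 4.60% for TE. Acbd6 had 12.3 and 10.5 RPKM of RPFs in HF and was listed at 0 in both HB libraries (limma adjusted p = 0.493). These values were 6 and 14 reads against none. The exact 95% interval of the rate ratio, HB over HF, ran from 0 to 0.733 and covers counting error only. Its mRNA was 17.5 and 17.5 RPKM in HF and 20.7 and 26.4 RPKM in HB.

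Of the uptake proteins outside the 8 genes, Got2, a mitochondrial aminotransferase also described as a plasma membrane fatty acid binding protein, had the most mRNA by the mean of all 4 libraries, though not in each of them (197 and 207 RPKM in HF, 326 and 315 RPKM in HB) and was not called (log2 difference 0.67, limma adjusted p = 0.0815). None of the 10 genes of that list was called in any measure. By adjusted p with the same fold, 1 of them passed for mRNA, Scarb2, a lysosomal relative of CD36 named here after its values were seen (9.63 and 12.5 RPKM in HF, 29.7 and 21.3 RPKM in HB, log2 difference 1.13, limma adjusted p = 0.0168). The intracellular lipid binding family was otherwise nearly silent, with 2 of 11 further members tested for mRNA. The sterol carrier gene Scp2 led the carriers with 1191 and 1028 RPKM of mRNA in HF and 1794 and 1106 RPKM in HB, above Dbi in HF. Acsl1, the main synthetase, had 574 and 322 RPKM in HF and 309 and 278 RPKM in HB (log2 difference -0.55, limma adjusted p = 0.230).

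**Figure D5:**
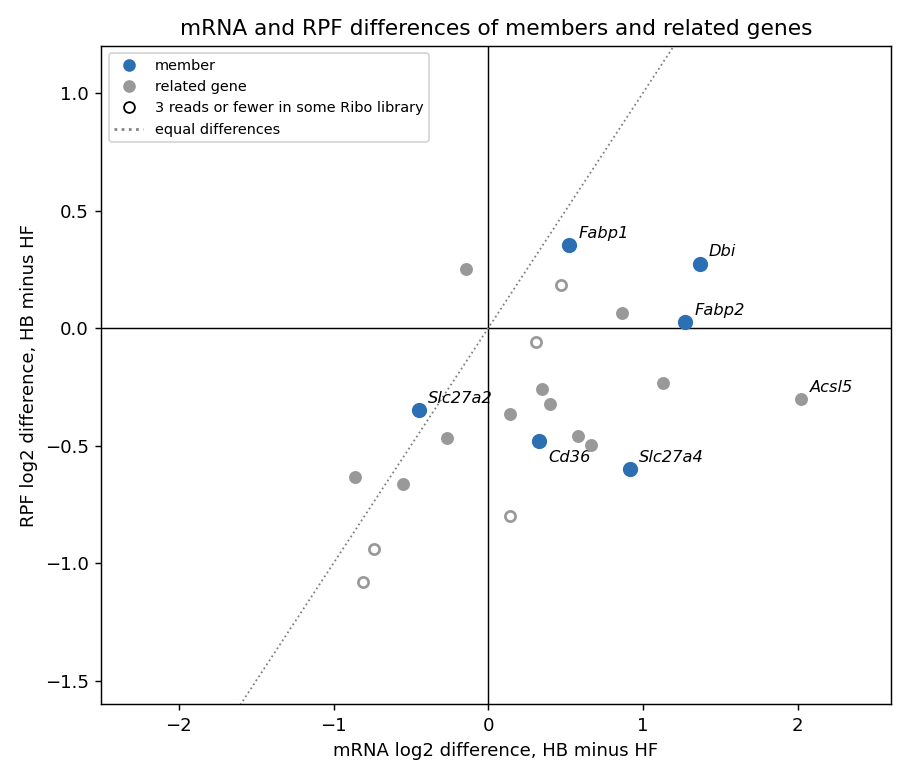
Log2 difference of RPFs against that of mRNA, HB minus HF, for 6 members (blue) and 17 related genes (grey) tested in both assays, open where some Ribo-seq library had 3 reads or fewer; Acbd6, without RPFs in HB, and Fabp4 and Fabp5, at the read floor, are left out. Of the members, 5 of 6 lie below the line of equal differences, as do 15 of the 17 related genes and 63.2% of all genes tested in both assays, and Dbi and Fabp2 lie far to the right of it near an RPF difference of 0.

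The genes whose pattern was most like that of Fabp1 were sought over the 8 libraries, as the smallest Euclidean distance between log2(RPKM + 1) values centred per gene within each assay, among 9455 genes. They were Ndufb11 (distance 0.315), a subunit of respiratory complex I, Dhrs7b (0.331) and Bag1 (0.338), a cochaperone of HSP70. Ndufb11 had 157 and 181 RPKM of mRNA in HF and 219 and 258 RPKM in HB. For Fabp5, the member with the largest mRNA difference, the nearest genes were Selenoh (1.32), Ruvbl1 (1.37) and Insc (1.38). The RPF part of these distances rests on at most 2 Fabp5 reads in a library, and as distances grow with a gene's own differences they are not compared between Fabp1 and Fabp5. RPFs of Selenoh were 11.7 and 8.60 RPKM in HF and 0 and 21.4 RPKM in HB.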

How the data were processed

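RNA-seq (poly(A)-selected, TruSeq v2) and Ribo-seq of liver were mapped by the authors to mm10 with FANSe2 and deposited as RPKM values per gene and library; the submitters' processing notes also name edgeR. The labels and the study's methods differ on the RNA-seq read length. From these values, log2(RPKM + 1) was compared between HB and HF in limma 3.58.1 (R 4.3.3; lmFit, eBayes with trend, group only), over genes with a mean of at least 1 RPKM, two-sided, with Benjamini-Hochberg adjustment over all tested genes. TE used log2 of the ratio of (RPKM + 1) values. Entries with a repeated symbol (4 in RNA-seq) were left out. An exact permutation test of 2 against 2 libraries cannot go below p = 0.333 and was not used. Whole reads were recovered from the RPKM steps (99.32% of RNA-seq and 99.92% of Ribo-seq values above 0 came out whole within 0.05 reads) and entered an alternative fit of limma voom. Close copies were sought with BLAST 2.17.0 in GENCODE M21 transcripts (at least 50 bases, 90% identity). The fits were also run on simulated data, with changes set larger than any seen in the members, so that run does not speak to differences of their size. The 8 genes and all lists were chosen with earlier results of these data known. Named beside the 8 genes were every called gene of the related and marker lists, the most abundant gene of each list (1 of these is not reported here), and the 3 nearest patterns of 2 members; Scarb2, Cd5l, Cfd, Cidec, Alas2 and Hba-a1 were added after their values were seen, and Cd68, Pecam1 and Stab2 are given in the closing section. Alternatives were another pseudocount, no filter, a common median, the replicate number as a block, adjusted p, each library left out, voom, and for TE crossed numbers and an interaction fit.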

Additional observations from a re-analysis of the deposited data

How the results depend on the processing

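Of the log2 differences of the members under the alternatives, 77 of 88 for mRNA, 61 of 66 for RPFs and 61 of 66 for TE kept both their direction and their side of the threshold. Alternatives that change only the spread or the rule (adjusted p, no filter, a block, crossed numbers, the interaction) leave the log2 difference as it is by construction, so for them the sign could not turn. The count of members called higher at the mRNA level, 3, became 4 at a common median, 2 in voom and 0 with no filter on low values, and ranged from 1 to 3 with a library left out; the count of members above the read floor with TE called lower, 0, ranged from 0 to 1. Fabp4 and Fabp5, whose RPFs rest on a few reads, are not counted there. The cause was not tested. Signs turned for Fabp1 TE at a common median (0.15) and for Fabp2 RPFs in voom (-0.10). With libraries left out, the range was -0.27 to 0.93 for Cd36 mRNA, -1.22 to 0.016, -0.57 to 0.62 and -0.16 to 0.71 for RPFs of Slc27a4, Fabp2 and Dbi, and -0.18 to 0.38 and -0.57 to 0.24 for TE of Slc27a2 and Fabp1. Over those fits the mRNA differences were 1.35 to 2.07 for Fabp5, 1.28 to 1.46 for Dbi and 1.11 to 1.44 for Fabp2, and the limma adjusted p over all alternatives ran up to 0.0550, 0.0664 and 0.0545.

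Over all tested genes the mRNA counts, 246 higher and 701 lower, became 535 and 1353 by adjusted p, 77 and 188 with no filter, and 540 and 291 at a common median, which also turned the balance of directions. RPF counts, 177 and 879, became 349 and 421 at a common median and up to 524 and 2609 with a library left out; TE counts, 141 and 435, became 259 and 253 at a common median and up to 455 and 1266. With the replicate block the mRNA counts were 498 and 1229 and the members called stayed at 3. Within an assay, HF and HB libraries of equal number did not deviate together (r across genes -0.104 for mRNA and -0.014 for RPFs). In the group comparison of an assay the numbers are therefore not taken as pairs. The crossed pairing, added after seeing the data, gave 474 and 1303 genes at the mRNA level and left 2 members called, Dbi being lost. TE, in contrast, does match mRNA to RPFs by number. Between the assays the r across genes was -0.0024 in HF and -0.077 in HB, which does not show that the numbers match. Depth limits the RPFs of Fabp4 and Fabp5 most, and those of Slc27a4 in HB.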

Other observations

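Among cell type markers at the RPF level, the endothelial genes Pecam1 (13.6 and 8.12 RPKM in HF, 2.57 and 2.33 RPKM in HB) and Stab2 (15.2 and 18.9 RPKM in HF, 8.13 and 5.20 RPKM in HB) were called lower in HB by limma, with log2 differences of -1.74 and -1.25 and adjusted p of 0.493 for both. The HB values of Pecam1 rested on 2 and 1 reads. The mRNA of both genes was also lower in both HB libraries, as in 43.3% of tested genes. Pecam1 had 6.71 and 4.49 RPKM of mRNA in HF and 3.86 and 4.02 RPKM in HB (log2 difference -0.40, limma adjusted p = 0.286). Stab2 had 9.76 and 10.4 RPKM in HF and 4.00 and 6.02 RPKM in HB (log2 difference -0.90, limma adjusted p = 0.0341). Cd68, a macrophage marker, was called lower in RPFs and TE on 4 and 6 reads in HF and none in HB. The TE of Lyz2 (log2 difference -2.48) and of Apoa4 (-2.26) was also called lower by limma, with adjusted p of 0.404 and 0.334, while their mRNA was higher in both HB libraries. RPFs of Lyz2 rested on 10 and 33 reads in HF and 16 and 1 in HB, so the second HB value was at the floor.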
